A study of Mus musculus with 6 samples.

Results

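The voltage-gated sodium and calcium channel genes of mouse cerebral cortex were followed here, 38 genes measured by 73 of 41174 probes, of which 31 genes and 57 probes were bright enough to be tested. Members were all non-control probes whose gene name on the array begins with Scn, a number and a or b, or with Cacn, and the brightest probe over the 6 arrays stood for each gene. The RNA came from cortex of male mice, 3 samples titled Cux2 knock-out (genotype Cux2-/-; samples 53, 48 and 54) and 3 samples titled wild type, whose genotype label however reads Cux2+/- (samples 15, 62 and 16). The latter are called controls, and the labels do not settle whether they carry 1 altered allele. The sources used here do not give age, strain or how the allele was built. The design asks which transcripts differ between cortex lacking Cux2, a homeodomain factor of upper-layer neurons, and control cortex. Each sample was hybridised once to a 1-colour array, and nothing in the labels states that samples are separate animals, so p-values measure only the spread between these samples.

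Sodium channels of this family are built around a pore-forming alpha subunit, which opens on depolarisation and carries the upstroke of the action potential, and beta subunits, single-pass proteins that tune gating and adhesion. Calcium channels are built around an alpha1 subunit, which sets the current type, with alpha2delta and beta subunits that bring it to the membrane and set its gating. Genes named as gamma subunits include several that serve AMPA-type glutamate receptors as auxiliary proteins instead. In cortex these channels set excitability at the axon initial segment, admit the calcium that triggers transmitter release, and couple dendritic activity to gene expression.

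Values below are log2 of the processed spot signal minus the 75th percentile of the same array, and differences are knock-out minus control on that log2 scale. A level says how bright a spot was and depends on its probe, so levels were compared between samples and not between genes. Probes well above background made up 58.5% to 72.7% of each array. The RNA of knock-out 54 stood apart in markers of olfactory bulb, a tissue next to the cortex: tyrosine hydroxylase (Th) stood at -0.38 there and between -4.57 and -3.42 on the other arrays, and Doc2g at 1.94 against -1.86 to -0.55. The mean deviation of 5 such markers from their own average over the 6 arrays was 2.66 on knock-out 54 and -0.85 to -0.28 elsewhere, a list that was chosen after the data were seen. Markers of striatum were highest on controls 15 and 62 (mean deviation 0.48 and 0.49), against -0.37 to -0.11 on the other 4 arrays. All 10 striatal and all 7 microglial markers were lower in the knock-outs, as were 5 of 6 astrocyte and 5 of 6 interneuron markers. The microglial differences ran from -0.77 (C1qb) to -0.013 (Cx3cr1). In these 4 lists 0 markers had an adjusted p under 0.05 in limma. Of all tested genes 48.2% were higher. The mean deviation of 7 neuronal markers lay between -0.055 and 0.041 on every array, with 4 markers higher and 3 lower in the knock-outs. Single markers moved more than this mean, and Nefl differed by 0.26 (limma adjusted p = 0.60). The part of these tissue differences in the channel values was not tested, and in whole tissue fewer cells of a type and less RNA per cell cannot be told apart. Cux2 itself differed by -0.12 with its brighter probe, and the sources used here do not place that probe relative to the altered allele, so it checks nothing about the labels.

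Most of the family was detected. Of 73 channel probes 54 were well above background on all 6 arrays, 74.0% beside 57.4% of all probes, and 10 on no array, 13.7% beside 24.8%. By brightest probe 30 of 38 genes were detected on all 6 arrays, and the same share over all genes is not given here. The median channel gene stood at percentile 66.2 of all probes by brightness in the controls, a comparison across probes and not of transcript levels. Taking the brightest of several probes raises both values, so neither says that the family is brighter than other genes. The 7 genes that were not tested were Scn7a, Scn9a, Scn10a, Scn11a, Cacna1f, Cacng1 and Cacng6.

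Promoters were then compared, since detection split the family and CpG content of the start region is a property that the choice of members did not use. A RefSeq table of build GRCm38.p6 held start regions for 29 of the 38 genes, 40 starts in all, and the 250 bases before each start were read. The regions shown are Scn8a (detected on all arrays), Cacna1i (5 arrays) and Scn11a and Cacna1f (no array), written 5′ to 3′ on the gene's strand with each CpG in capitals; for Scn8a, with 2 starts, the start with more CpGs is shown.
Scn8a, chr15:100870395-100870644, plus strand: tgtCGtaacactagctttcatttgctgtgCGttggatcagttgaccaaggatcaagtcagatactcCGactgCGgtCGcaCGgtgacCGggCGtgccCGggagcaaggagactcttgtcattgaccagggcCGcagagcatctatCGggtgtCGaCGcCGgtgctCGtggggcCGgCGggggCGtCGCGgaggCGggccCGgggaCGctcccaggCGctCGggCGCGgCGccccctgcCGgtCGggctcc
Cacna1i, chr15:80286988-80287237, plus strand: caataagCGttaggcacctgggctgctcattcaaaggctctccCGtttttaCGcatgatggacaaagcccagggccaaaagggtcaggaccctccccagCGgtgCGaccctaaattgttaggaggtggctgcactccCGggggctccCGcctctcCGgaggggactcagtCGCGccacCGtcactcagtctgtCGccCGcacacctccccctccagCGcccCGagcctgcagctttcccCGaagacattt
Scn11a, chr9:119825457-119825706, minus strand: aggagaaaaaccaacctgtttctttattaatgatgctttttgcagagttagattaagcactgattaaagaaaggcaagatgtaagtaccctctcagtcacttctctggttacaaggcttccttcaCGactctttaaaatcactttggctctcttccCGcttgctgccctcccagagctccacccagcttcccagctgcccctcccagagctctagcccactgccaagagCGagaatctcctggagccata
Cacna1f, chrX:7606853-7607102, plus strand: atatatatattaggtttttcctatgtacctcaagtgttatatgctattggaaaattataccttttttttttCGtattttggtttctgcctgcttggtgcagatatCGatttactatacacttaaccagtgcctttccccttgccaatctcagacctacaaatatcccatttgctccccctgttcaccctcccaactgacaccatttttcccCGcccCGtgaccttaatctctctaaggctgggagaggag
The Scn8a region holds 30 CpGs, Cacna1i 16, Scn11a 3 and Cacna1f 4. Taking the CpG-richest start of each gene, the 22 channel genes with a promoter entry and detection on all 6 arrays had a median of 19.5 CpGs (0 to 50), and the 6 detected on at most 1 array had 4.5 (3 to 8). Over all genes the same classes had medians of 17 in 10718 genes and 2 in 3444 genes, so the same order held over all genes. Detection does not follow CpG count gene by gene: Scn2b holds 1 CpG and Cacng8 holds 0 in this window, and both were detected on all arrays. The letters ATCGAT, a site that the related factor Cux1 is known to bind and which reads the same on both strands, occur before 1 of 40 starts, that of Cacna1f, and before 0.728% of 32851 starts of all genes. The letters ATCAAT, searched on both strands, occur before 1 of 40 starts, the second of Scn8a, and before 6.72% of all starts.

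**Figure D1:**
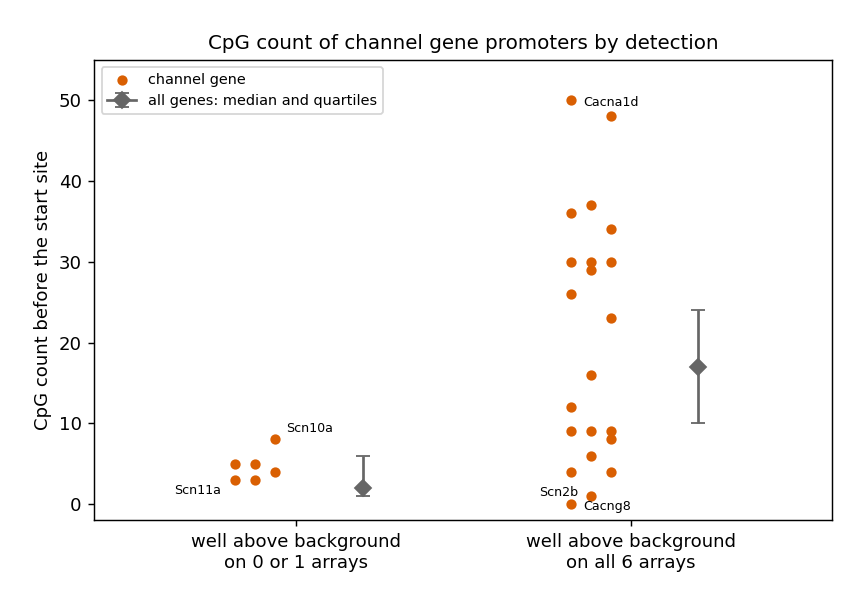
CpG count in the 250 bases before the CpG-richest start of each channel gene (orange points, y axis), for 6 genes whose brightest probe was well above background on 0 or 1 arrays and 22 genes on all 6; grey diamonds and bars are the median and quartiles of all genes in the same class. The 6 poorly detected channel genes lie between 3 and 8 and the 22 detected ones between 0 and 50.

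No channel probe changed past the threshold. In limma, 0 of 57 tested channel probes had an adjusted p under 0.05 over all 25505 probes (lowest adjusted p = 0.349), where 0.129% of all probes did, and 5 of the 57 had an unadjusted p under 0.05, a share of 8.77% beside 7.96% of all probes. Of 31 tested genes 16 stood higher and 15 lower in the knock-outs, or 51.6% higher beside 48.2% of all 17122 genes tested. The median difference was 0.0015 over the channel genes and -0.0060 over all genes. The median size of the difference, sign apart, was 0.10 and 0.091, and 1 channel gene, Cacna1i, exceeded 0.5 in size, beside 4.49% of all genes. The 3 knock-out arrays lay wholly above the 3 controls in 4 channel genes and wholly below in 0, together 12.9%, beside 13.6% of all genes (6.38% wholly above and 7.21% wholly below). By probe 6 of 57 separated, beside 13.1% of all probes. By gene 3 of 31, Scn3a, Cacna1g and Cacna1i, had an unadjusted p under 0.05, a share of 9.68% beside 8.27% of all genes (Cacna1i was tested only through the knock-outs), and 0 an adjusted one, beside 0.128%.

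How far this bounds the change differs by gene. By brightest probe the 95% interval of the difference lay within 1.5-fold either way for 25 of 31 genes, and within 2-fold for 29. The 6 genes with a wider interval than 1.5-fold were Scn3a, Cacna1c, Cacna1i, Cacna2d2, Cacng5 and Cacng7, and Cacna1i and Cacna2d2 were also wider than 2-fold. Other probes of a gene can be less bounded: the dim probe of Scn2a1 had an interval of -0.065 to 1.004, past 2-fold. In the plot of differences the widest lines belong to Cacna2d2, Cacna1i and Cacng5. Each has 1 knock-out array, number 54, well away from the other knock-outs.

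**Figure D2:**
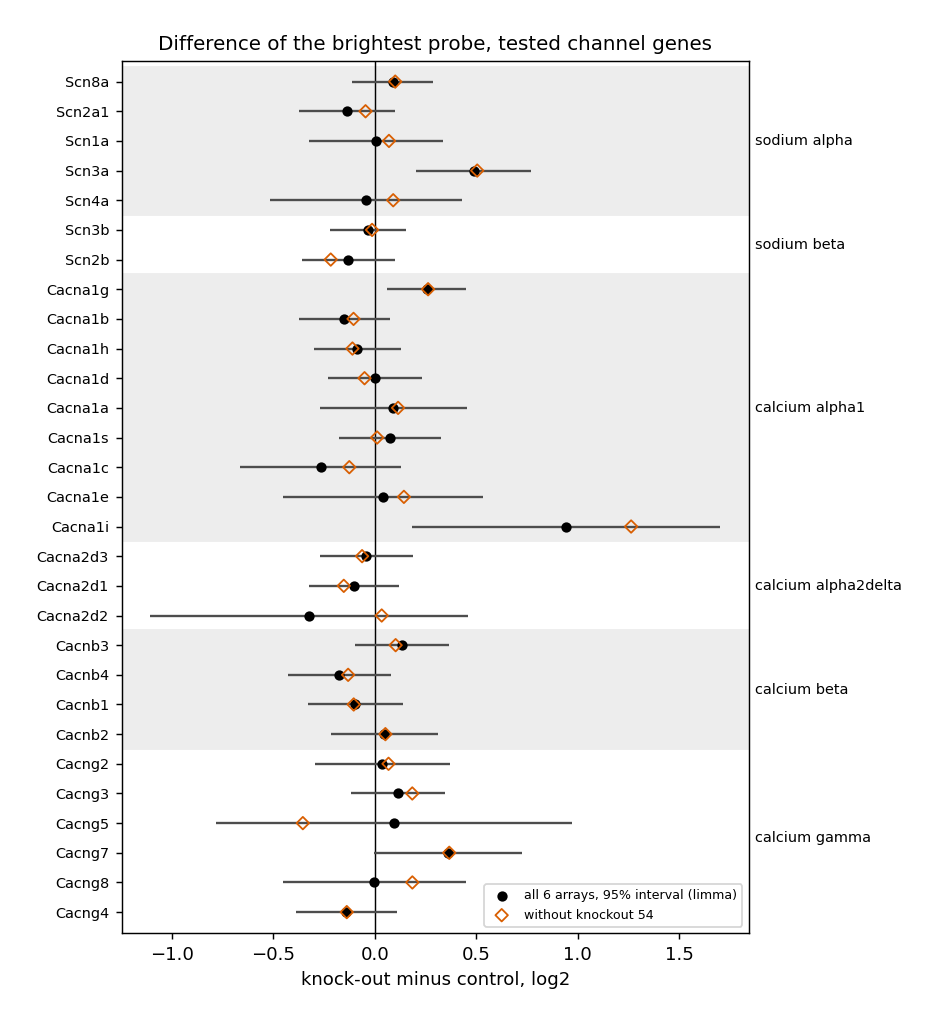
Knock-out minus control (log2, x axis) for the brightest probe of 29 tested channel genes, grouped by subunit; black points and lines are limma estimates with 95% intervals from all 6 arrays, and open diamonds leave out knock-out 54. The intervals of Scn3a (0.21 to 0.77), Cacna1g (0.06 to 0.45) and Cacna1i (0.18 to 1.70) lie above 0 before adjustment, and Cacna2d2, Cacng5, Scn4a, Cacna1d and Cacng8 change side without knock-out 54.

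**Figure D3:**
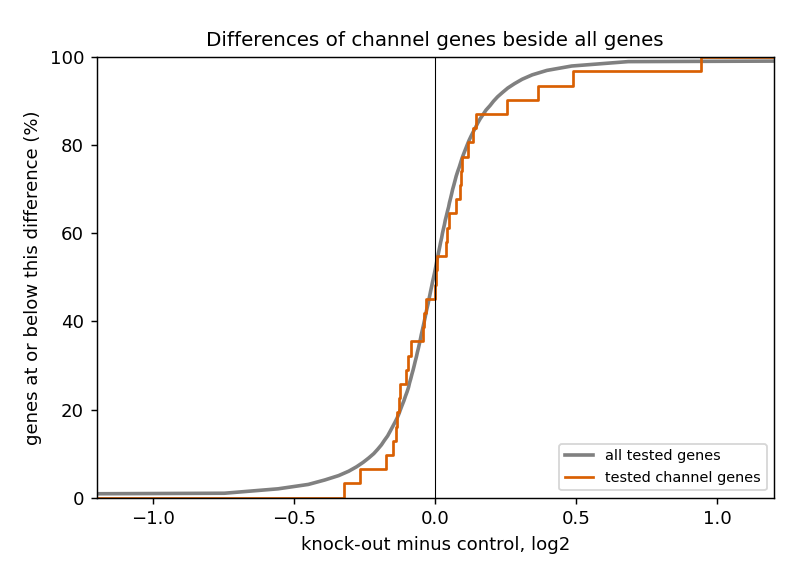
Cumulative share of genes (percent, y axis) by knock-out minus control difference (log2, x axis) for the 31 tested channel genes (orange steps) and all 17122 tested genes (grey line, drawn at each percent). Both curves cross the middle near 0, with medians of 0.0015 and -0.0060, and the last orange step is Cacna1i at 0.94.

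The sodium alpha subunits split by detection. Scn8a, the channel concentrated at the mature axon initial segment and at nodes, Scn2a1, carried mainly by excitatory neurons, Scn1a, best known from inhibitory interneurons, Scn3a and Scn4a were well above background on all 6 arrays by their brightest probes. Scn7a, Scn9a and Scn11a were well above background on no array and Scn10a on 1 control array. Scn9a, Scn10a and Scn11a are known as channels of peripheral sensory neurons, and Scn7a encodes a sodium sensor that does not open with voltage. Scn4a is named for skeletal muscle, and of 6 skeletal muscle markers Ckm was well above background on no array and 4 were on all arrays.

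The controls 15, 62 and 16 gave Scn8a values of 5.12, 4.95 and 4.94, and the knock-outs 53, 48 and 54 gave 5.12, 5.10 and 5.07. The groups overlap, since control 15 is level with the highest knock-out. Scn8a differed by 0.088 (95% interval -0.11 to 0.29; limma adjusted p = 0.863), and its second probe differed by 0.086.

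Scn2a1 stood at 3.53, 3.48 and 3.45 in controls 15, 62 and 16 and at 3.43, 3.45 and 3.17 in knock-outs 53, 48 and 54. Knock-out 48 is level with control 16, knock-out 53 lies just under it, and knock-out 54 is the lowest array. The difference of -0.13 (95% interval -0.37 to 0.10; limma adjusted p = 0.825) was -0.045 without knock-out 54. Its 3 tested probes disagreed. A bright probe differed by -0.15, with all knock-outs below all controls, while a dim probe stood at -3.32, -3.25 and -2.95 in controls and -2.21, -2.90 and -3.002 in knock-outs and differed by 0.47 (limma adjusted p = 0.679). Without knock-out 53, its highest array, the dim probe differed by 0.22, and over 17 alternative fits it ranged from 0.22 to 0.64. With slide as a block it differed by 0.63 (limma adjusted p = 0.426).

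Scn1a stood at 0.53, 0.69 and 0.997 in controls 15, 62 and 16 and at 0.75, 0.87 and 0.62 in knock-outs 53, 48 and 54. All 3 knock-outs lie inside the range of the controls. The difference was 0.0067 (95% interval -0.32 to 0.34; limma adjusted p = 0.995). A second Scn1a probe was well above background on no array.

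Scn3a, the alpha subunit known for its high level in fetal brain and its decline after birth, had the lowest p of all members. Its brightest probe stood at -1.90, -2.07 and -1.76 in controls 15, 62 and 16 and at -1.55, -1.26 and -1.46 in knock-outs 53, 48 and 54. Every knock-out lies above every control. The difference was 0.49 (SE 0.12, 1.40-fold), with an adjusted p of 0.349 in limma and an unadjusted p under 0.05. It was 0.54 within slide 1, 0.36 within slide 2 and 0.51 without knock-out 54.

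The second Scn3a probe gave a negative difference at these settings. It stood at -5.10, -4.67 and -4.47 in controls 15, 62 and 16 and at -5.51, -6.35 and -5.33 in knock-outs 53, 48 and 54. All knock-outs lie below all controls here, but the probe was well above background on 3 control arrays and 1 knock-out array, so it entered the test only through the controls. It differed by -0.98 (limma adjusted p = 0.480). With normexp background correction the same probe differed by 0.39 (limma adjusted p = 0.988), so its direction rests on how the background was treated. The third probe, well above background on 2 control arrays and no knock-out array, was not tested. Its mean was -5.88 in controls and -6.39 in knock-outs, with overlapping groups on a dim probe, so no direction is read from it. Scn2a1 and Scn3a were the 2 of 17 channel genes with several tested probes whose probes lay on opposite sides of 0 and over 0.5 apart, as did 5.09% of all such genes. Scn3a is among them through the probe that entered by the controls alone. The probes target different transcript records, and the sources used here do not say which transcripts each one reads.

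Within the alpha subunits genes of the same chromosome region could differ in detection. By the gene order of the GRCm38.p6 table, Scn3a, Scn2a1, Scn1a, Scn9a and Scn7a lie in this order on chromosome 2, not all as direct neighbours. The first 3 were detected on all arrays by their brightest probes and the last 2 on none. Scn10a and Scn11a follow each other on chromosome 9, and neither was tested. Scn4a, outside these clusters, differed by -0.044 (limma adjusted p = 0.979).

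**Figure D4:**
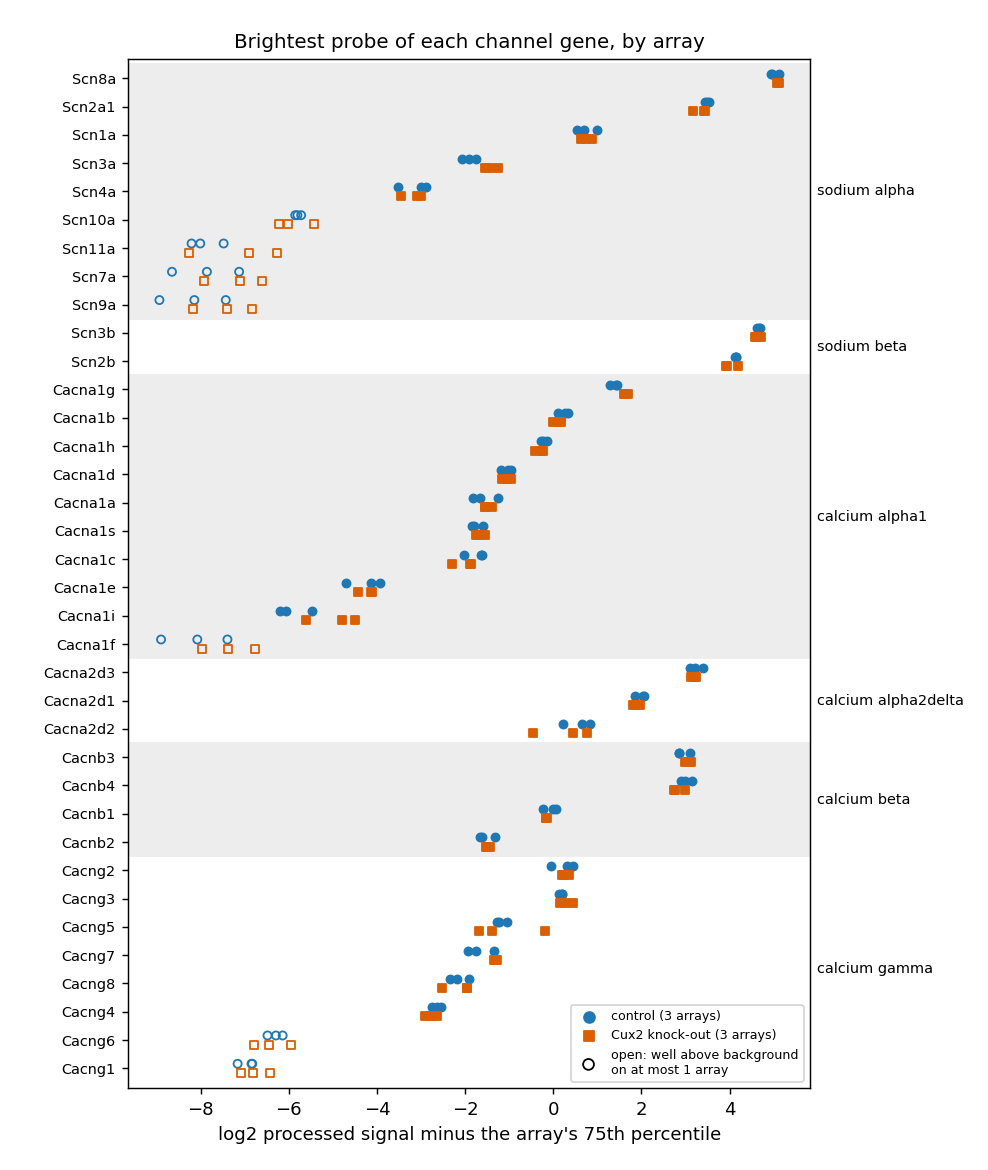
Log2 processed signal minus the array's 75th percentile (x axis) for the brightest probe of 36 channel genes, 3 control arrays (blue circles) and 3 knock-out arrays (orange squares) a gene; open symbols mark the 7 genes well above background on at most 1 array. In most genes the groups overlap; Scn3a, Cacna1g and Cacng7 separate, and array 54 lies apart in Cacng5 and Cacna2d2.

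Neither Scn2b nor Scn3b, sodium beta subunits with bright probes, passed the threshold. Scn3b stood between 4.61 and 4.70 in controls and between 4.58 and 4.72 in knock-outs, a difference of -0.033 (95% interval -0.22 to 0.16; limma adjusted p = 0.959). Scn2b stood at 4.15, 4.16 and 4.13 in controls 15, 62 and 16 and at 3.93, 3.93 and 4.19 in knock-outs 53, 48 and 54. Knock-outs 53 and 48 lie below all controls and knock-out 54 above them. Scn2b differed by -0.13 (limma adjusted p = 0.827), and by -0.22 without knock-out 54.

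Of 10 calcium alpha1 genes 9 were tested, 6 of them higher and 3 lower, with 0 past the threshold in limma. Of these 9 genes 2, Cacna1g and Cacna1i, had an unadjusted limma p under 0.05, beside 8.27% of all genes. Cacna1i was tested only through the knock-outs. Both are T-type channels, which open at low voltage and support burst firing. So is Cacna1h, whose brightest probe differed by -0.085. No test compared the current types.

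Cacna1g stood at 1.43, 1.28 and 1.45 in controls 15, 62 and 16 and at 1.70, 1.61 and 1.63 in knock-outs 53, 48 and 54. The knock-outs lie above the controls. The difference was 0.26 (SE 0.082, 1.19-fold; limma adjusted p = 0.514), and it was 0.19 within slide 1 and 0.33 within slide 2. A dimmer Cacna1g probe differed by 0.054, with overlapping groups, by -0.067 within slide 2 and by -0.11 without control 15.

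Cacna1i had the largest difference of the 31 genes, on a dim probe. It stood at -6.05, -5.48 and -6.20 in controls 15, 62 and 16 and at -4.80, -4.50 and -5.61 in knock-outs 53, 48 and 54. Knock-outs 53 and 48 are above all controls, and knock-out 54 is below control 62. The difference was 0.94 (SE 0.32, 1.92-fold; limma adjusted p = 0.525) and 1.26 without knock-out 54 (limma adjusted p = 0.326). The probe was well above background on 2 control and 3 knock-out arrays, so it entered the test only through the knock-outs.

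Cacna1h stood at -0.23, -0.28 and -0.13 in controls and -0.42, -0.23 and -0.25 in knock-outs 53, 48 and 54 by its brightest probe, which differed by -0.085 (limma adjusted p = 0.886). A dimmer probe of the same gene differed by 0.31 (limma adjusted p = 0.625, unadjusted p just under 0.05), with overlapping groups, and another by -0.031.

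**Figure D5:**
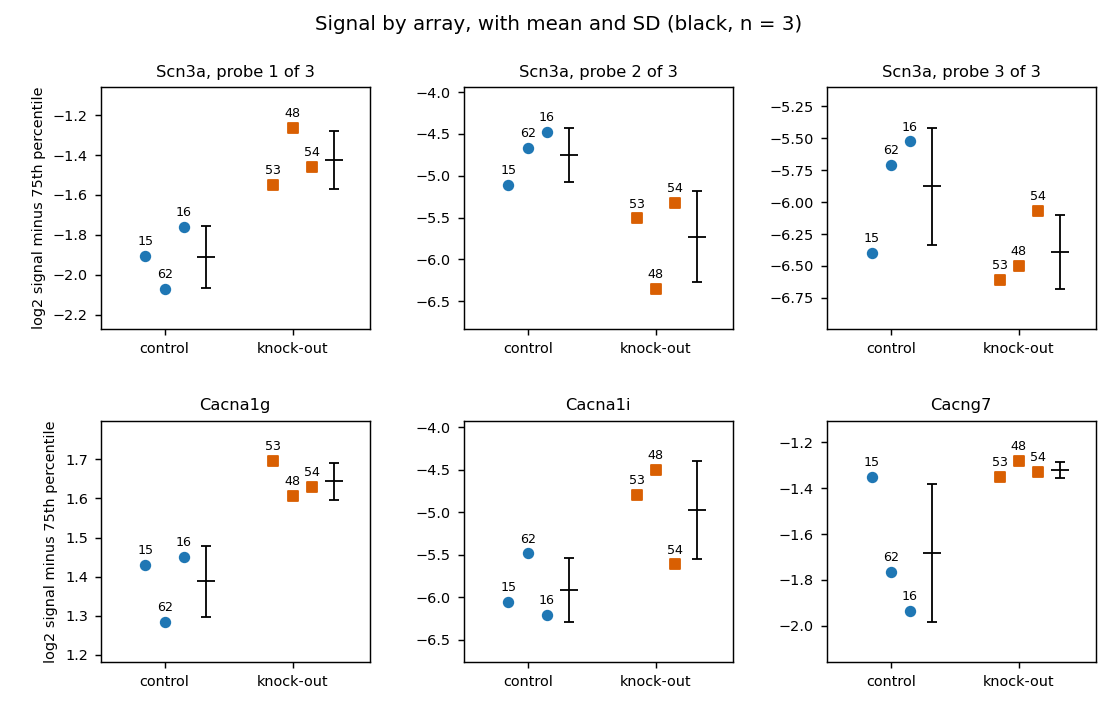
Log2 signal minus the array's 75th percentile (y axis, scaled per panel) on each array for the 3 probes of Scn3a, from brightest to dimmest, and the brightest probes of Cacna1g, Cacna1i and Cacng7; numbers are sample numbers, and black marks are the mean and SD of 3 arrays. The first Scn3a probe is higher in all knock-outs and the second lower in all of them, and in Cacng7 control 15 lies at the knock-outs' level.

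Cacna1a, the P/Q-type pore that drives fast transmitter release, stood at -1.82, -1.26 and -1.67 in controls 15, 62 and 16 and at -1.39, -1.54 and -1.54 in knock-outs 53, 48 and 54. The knock-outs lie inside the range of the controls. It differed by 0.092 (95% interval -0.27 to 0.45; limma adjusted p = 0.934), and a second probe differed by 0.17. Cacna1b, the N-type pore, differed by -0.15 (limma adjusted p = 0.778) and Cacna1e, the R-type pore, by 0.042 (limma adjusted p = 0.981).

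Cacna1c, the main L-type pore of forebrain neurons, stood at -2.02, -1.63 and -1.61 in controls 15, 62 and 16 and at -1.88, -1.87 and -2.30 in knock-outs 53, 48 and 54. The groups overlap at control 15, and knock-out 54 is the lowest array. Cacna1c differed by -0.27 (95% interval -0.66 to 0.13; limma adjusted p = 0.777), and by -0.13 without knock-out 54. A second Cacna1c probe was also lowest on knock-out 54, at -3.30, and differed by -0.30. The other L-type genes were level: Cacna1d differed by 0.0015 and Cacna1s by 0.074, and Cacna1f, the pore of retinal photoreceptors, was well above background on no array.

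The alpha2delta subunits, which traffic the pore and bind gabapentin-type drugs in some isoforms, had negative differences by the brightest probe of each of 3 genes, none past the threshold in limma. Cacna2d1 differed by -0.10 and Cacna2d3 by -0.041, with limma adjusted p of 0.858 and 0.958. A second Cacna2d1 probe differed by 0.026, and Cacna2d3 by 0.035 without control 15. Cacna2d2 stood at 0.83, 0.66 and 0.23 in controls 15, 62 and 16 and at 0.77, 0.45 and -0.46 in knock-outs 53, 48 and 54. Knock-out 54 is the lowest array, and the other 2 knock-outs lie within the controls. Its difference of -0.32 (95% interval -1.11 to 0.46; limma adjusted p = 0.881) became 0.035 without knock-out 54. A second Cacna2d2 probe was also lowest on that array, at -0.55 against -0.16 to 0.09 elsewhere.

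The cytoplasmic beta subunits were measured by 9 probes, all tested. Cacnb4 stood at 2.98, 3.15 and 2.89 in controls 15, 62 and 16 and at 2.98, 2.77 and 2.75 in knock-outs 53, 48 and 54 by its brightest probe. Knock-outs 48 and 54 are below the controls and knock-out 53 is level with them. Cacnb4 differed by -0.17 (95% interval -0.43 to 0.08; limma adjusted p = 0.774), while its 3 other probes differed by 0.024, 0.044 and 0.21. Cacnb3 stood between 2.85 and 3.09 in controls and between 2.99 and 3.13 in knock-outs, a difference of 0.14 (limma adjusted p = 0.818). Cacnb1 differed by -0.095 and Cacnb2 by 0.048.

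Of 8 genes named as gamma subunits 6 were tested, and these 6, Cacng2, Cacng3, Cacng4, Cacng5, Cacng7 and Cacng8, are known as auxiliary proteins of AMPA receptors. The other 2, Cacng1, a subunit of the skeletal muscle channel, and Cacng6, were well above background on 0 and 1 arrays. Cacng2, known as stargazin, stood at -0.06, 0.44 and 0.31 in controls 15, 62 and 16 and at 0.25, 0.35 and 0.21 in knock-outs 53, 48 and 54. The knock-outs lie inside the controls, and the difference was 0.038 (95% interval -0.30 to 0.37; limma adjusted p = 0.975). Cacng3 differed by 0.12, Cacng4 by -0.14 and Cacng8 by -0.0020.

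Cacng7 stood at -1.35, -1.76 and -1.94 in controls 15, 62 and 16 and at -1.35, -1.28 and -1.33 in knock-outs 53, 48 and 54. The knock-outs lie above the controls, though control 15 is level with knock-out 53. The difference was 0.36 (95% interval -0.0013 to 0.73; limma adjusted p = 0.626), and it was 0.045 within slide 1, which holds control 15, and 0.50 within slide 2.

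Cacng5 was singled out after its values were seen, because of 1 array. It stood at -1.05, -1.27 and -1.22 in controls 15, 62 and 16 and at -1.69, -1.38 and -0.19 in knock-outs 53, 48 and 54. Knock-out 54 is the highest of the 6 arrays and the other knock-outs are the lowest 2. The difference was 0.094 over all arrays (limma adjusted p = 0.975) and -0.35 without knock-out 54. Knock-out 54 is the array with the high olfactory bulb markers given above, whose part in the Cacng5 value was not tested.

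Genes that work with the channels were read from lists. Of 22 sodium channel partners, such as the ankyrins and the adhesion proteins of the initial segment, 21 were tested, 9 higher and 12 lower, with a median difference of -0.018 and 0 past the threshold in limma in either direction. The lowest p was that of Calm3, a calmodulin gene, at 0.37 (limma adjusted p = 0.521, unadjusted p under 0.05), followed by Cntn1, an axonal adhesion protein, at 0.20 (adjusted p = 0.637). The calmodulin genes encode the same protein and were measured by separate probes. Of 32 calcium channel partners, such as release-site scaffolds, ryanodine receptors and calmodulin-dependent kinases, 30 were tested, 16 higher and 14 lower, with a median of 0.0038, 0 past the threshold and 0 at an unadjusted p under 0.05 in limma. Ryr1, a calcium release channel, had the lowest p, at -0.23 (limma adjusted p = 0.722), followed by Ncs1, a neuronal calcium sensor, at -0.18 (adjusted p = 0.741). Of 13 related channel genes outside the family rule 7 were tested and 0 passed. Among these Unc80, a partner of the sodium leak channel Nalcn, differed by -0.44 (limma adjusted p = 0.482, unadjusted p under 0.05), and Nalcn itself was not bright enough to be tested.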

How the data were processed

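RNA of 3 control and 3 Cux2 knock-out cortex samples was hybridised with Cy3 label, 1 sample to each 1-colour Agilent array, per the labels. The authors' deposited spot files come from Agilent Feature Extraction 9.1.3.1. The intensity used is its processed signal, which per the file headers was background-subtracted and detrended within an array before it was deposited by the authors, with surrogate values where spots are dim. The authors also deposited a log2 table, whose columns share a median of 6.75 and rank as the processed signal does (Spearman correlation 1.0); its scaling and centring are not stated.

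Each array has 45018 spots. Control spots (1639) and 120 outlier spots over all arrays were dropped, and 0 spots were saturated. Spots of 1 probe were averaged, giving 41174 probes, and log2 signals were centred on the 75th percentile of their array. Probes entered the test if all 3 arrays of either group were well above background (25505 probes), and 3 channel probes, of Scn3a, Cacna1d and Cacna1i, entered through 1 group only. Differences were fitted with lmFit and eBayes of limma 3.58.1 (R 4.3.3) and adjusted by Benjamini-Hochberg over all tested probes; intervals are 95% intervals of that fit. Data were simulated for this comparison (25443 probes, 50 changed at each fold). The share recovered was 32% for 1.5-fold changes, 66% for 2-fold, 100% for 4-fold and 98% for 8-fold changes, and 8 calls were false. The simulated noise was independent between probes and held no tissue differences between arrays, so recovery in the real data can be lower. The number of arrays limits the precision.

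Slide 1 holds control 15 and knock-outs 48 and 54, slide 2 the other 3 arrays, all with 1 scan date. Genes outside the family were named through a GRCm38.p6 gene table; 49 of 73 channel probes have an accession in it and 0 of these name another gene. The array's Scn2a1 is Scn2a there.

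Genes were named by rule: the markers Scn1a, Scn2a1, Cacna1a and Cacna1c; members with any probe at an unadjusted p under 0.05, with separated groups, among the 4 largest rises or falls, with probes of opposite sign over 0.5 apart, or detected on no array or in 1 group only; the brightest of each subunit class; and up to 4 partner genes of lowest p per list. Other members are given to account for the family; 2 members that count in its totals are not reported here singly. Members and lists were chosen with earlier results of these data known, and the olfactory bulb list after these arrays were seen. Alternatives changed the scaling, background, filter, variance model, slide block, source table, probe summary, member names and arrays. Figures were drawn with matplotlib 3.10.9.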

Additional observations from a re-analysis of the deposited data

How the results depend on the processing

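In 17 alternative fits 0 channel probes passed in limma, as in the main setting. Between 0 and 11 had an unadjusted p under 0.05. The 11 came with no scaling, which shifts all genes, and the next highest count, 8, without knock-out 54. The shares of all probes at that level in these fits are not given here, so these counts are not read as a result about the channels. The calls over all probes moved more. They fell from 33 of 25505 probes to 0 with normexp and 15 with slide as a block over the same probes, to 3 of 30961 with a filter of at least 1 array and to 2 of 41173 with no filter on dim probes. They ranged from 2 to 62 as single arrays were left out, with 25526 to 27406 probes tested (2 without control 15, 2 without control 16, 13 without knock-out 54, 62 without knock-out 53). With no scaling, a setting that moves the median of all genes by 0.17, 29 of 31 channel genes were higher (93.5%, beside 86.5% of all genes), with medians of 0.14 for sodium and 0.19 for calcium channel genes. The calcium median, 0.02 in the main setting, was -0.017 with median scaling and 0.090 with normexp, and ranged from -0.027 (without control 62) to 0.048 as single arrays were left out. The sodium median, -0.03, ranged from -0.078 to 0.070 (without knock-out 54). With median scaling 36.6% of all genes and 45.2% of channel genes were higher.

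Among 18 named genes 27 values under alternatives changed sign and 332 did not. Without scaling Cacna1b stood at 0.024, Cacna1h at 0.090, Cacna2d3 at 0.13, Cacnb4 at 0.0010, Scn2a1 at 0.040 and Scn3b at 0.14. With the mean of a gene's probes Cacna1h stood at 0.066, Cacnb4 at 0.026, Scn2a1 at 0.063, Scn3a at -0.25 and Scn3b at 0.0060. That Scn3a value includes its second probe, which entered the test only through the controls and differed by 0.39 with normexp. Scn1a stood at -0.030 with median scaling, Scn3b at 0.0031 with quantile normalization, and Cacna1c at 0.097 and Scn8a at -0.012 with normexp. Within slide 1 Scn8a stood at -0.042, and within slide 2 Cacna2d2 at 0.33, Cacng2 at -0.13 and Scn1a at -0.095. As single arrays were left out, Scn1a ranged from -0.097 to 0.13, Cacna1a from -0.026 to 0.25, Cacna2d3 from -0.10 to 0.035, Cacng2 from -0.11 to 0.14 and Cacna2d2 from -0.58 to 0.035. Apart from the scaling, whose shift moves all genes, the cause was not tested. No paired analysis was possible because the groups share no replicate number. Of the brightest probes Cacng5 had the largest SE (0.37), and the 3 channel probes tested through 1 group only are dim.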
